A study of Saccharomyces cerevisiae with 8 samples.

Results

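The 8 glycogen metabolism genes of *Saccharomyces cerevisiae* were followed across an RNA-seq experiment on the transcription factor gene *AZF1*. They were taken by gene name from a table of 6328 genes, and all 8 were found, namely *GLG1*, *GLG2*, *GSY1*, *GSY2*, *GLC3*, *GPH1*, *GDB1* and *GAC1*. The 8 libraries formed 4 groups of 2. *AZF1* MoBY cells carried a MoBY 2.0 plasmid with *AZF1* and grew with 200 mg/L G418, and MoBY control cells carried the empty plasmid and grew with the same dose. The *azf1Δ* cells lacked *AZF1* and WT cells had it, both without plasmid or antibiotic. All were derived from Y128, a strain that had been engineered with genes for xylose metabolism and selected for anaerobic growth on that sugar, and which per the study's description lacks functional *ISU1*, *HOG1*, *GRE3* and *IRA2*. The labels give Y128, whereas the study's methods give its marker-free derivative Y133. Every culture was sampled in exponential growth on 2% xylose without oxygen, and duplicates came from different days. Because the plasmid strains were the only ones given G418, an effect of the plasmid and an effect of the drug cannot be told apart in MoBY control against WT.

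Glycogen is the branched glucose polymer in which yeast stores carbohydrate, typically as growth slows or under stress. Glycogenin (Glg1 and Glg2) starts the chain on itself, glycogen synthase (Gsy1 and Gsy2) extends it from UDP-glucose, and the branching enzyme Glc3 adds the branches. Glycogen phosphorylase (Gph1) and the debranching enzyme (Gdb1) take the polymer apart. Gac1 brings the protein phosphatase Glc7 to glycogen synthase, which is active when dephosphorylated. Protein kinase A (PKA) signaling is known to favor the loss of glycogen and to hold down its genes, and Ira2 is an inhibitor of the Ras proteins that feed PKA. Only transcripts were measured here, and neither glycogen itself nor the phosphorylation of these proteins was assayed.

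Levels are in RPKM, the reads of a gene scaled to its length and to the mapped reads of the library, so they can be compared between genes as well as between libraries. The step between low values implied 6180000 to 7115000 mapped reads per library. At that depth the glycogen genes had between about 38.1 reads (*GLG2*) and 3751 reads (*GAC1*) in a library, and counting alone gave an error of up to 16.2% for *GLG2* and 13.4% for *GLG1* but at most 5.68% for the other members. No 50-base stretch of any member occurred elsewhere in the RefSeq genome, which includes the *GSY1* and *GSY2* pair. *AZF1* checked the labels, with 74.0 and 73.5 RPKM in *AZF1* MoBY against 13.3 and 14.3 RPKM in MoBY control, and with 0.0501 and 0.120 RPKM in *azf1Δ* against 13.2 and 11.6 RPKM in WT. The *azf1Δ* values lie under 3 reads, and a level of 3 reads would be 75.2-fold below WT as a ratio of group means. The resistance marker *kanR*, carried on the plasmids and in the KanMX cassette of *azf1Δ*, stood at 36.5 and 40.2 RPKM in *AZF1* MoBY against 68.6 and 90.5 RPKM in MoBY control (log2 fold change -1.02 ± 0.15, SE, limma, adjusted p = 0.0110), and at 11.8 and 8.17 RPKM in *azf1Δ* against 0.200 and 0.351 RPKM in WT. The plasmid groups thus differed in the level of the marker as well as of *AZF1*, and its part in the results was not tested.

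The glycogenins had the lowest transcript levels of the group. *GLG1* stood at 5.21 and 4.82 RPKM in *AZF1* MoBY replicates A and B, 6.36 and 7.26 RPKM in MoBY control, 10.7 and 10.5 RPKM in *azf1Δ* and 9.78 and 8.88 RPKM in WT. *GLG2* stood at 5.39 and 6.32 RPKM in *AZF1* MoBY, 7.36 and 5.28 RPKM in MoBY control, 11.3 and 9.19 RPKM in *azf1Δ* and 9.0 and 9.51 RPKM in WT. All 4 plasmid-bearing libraries were below all 4 others for both genes, and for *GLG2* neither the plasmid groups nor the plasmid-free groups separated from each other.

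The synthase genes covered very different ranges. *GSY1* stood at 48.8 and 53.8 RPKM in *AZF1* MoBY, 67.2 and 79.9 RPKM in MoBY control, 97.0 and 104.0 RPKM in *azf1Δ* and 84.5 and 90.5 RPKM in WT, so that the 4 groups lay in 4 bands with no overlap. *GSY2* stood at 27.9 and 25.3 RPKM in *AZF1* MoBY, 21.3 and 28.6 RPKM in MoBY control, 29.7 and 28.4 RPKM in *azf1Δ* and 28.8 and 30.9 RPKM in WT. Its highest library was only 1.45-fold above its lowest, the narrowest range of any member, and the *GSY2* values of *AZF1* MoBY lay between those of the MoBY control replicates. *GLC3* stood at 45.6 and 43.1 RPKM in *AZF1* MoBY, 42.8 and 48.5 RPKM in MoBY control, 97.0 and 96.3 RPKM in *azf1Δ* and 82.1 and 81.0 RPKM in WT. The branching enzyme gene therefore split the libraries by plasmid, with no separation between the plasmid groups.

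Of the breakdown enzymes, *GPH1* ranged most. It stood at 50.2 and 52.0 RPKM in *AZF1* MoBY, 63.1 and 59.7 RPKM in MoBY control, 153.3 and 177.3 RPKM in *azf1Δ* and 115.4 and 117.0 RPKM in WT. The *GPH1* groups did not overlap and spanned 3.53-fold from the lowest to the highest library. *GDB1* stood at 79.9 and 77.7 RPKM in *AZF1* MoBY, 72.5 and 59.7 RPKM in MoBY control, 85.6 and 91.8 RPKM in *azf1Δ* and 88.7 and 76.1 RPKM in WT. For *GDB1* the whole range was 1.54-fold, and MoBY control had both of the lowest values.

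*GAC1* had the highest average level of the 8 genes in every group. It stood at 84.5 and 78.3 RPKM in *AZF1* MoBY, 108.4 and 94.4 RPKM in MoBY control, 221.3 RPKM in both *azf1Δ* libraries and 203.7 and 178.5 RPKM in WT. The 4 *GAC1* groups were again separate from each other. In WT it was followed by *GPH1* (116.2 RPKM on average) and then by *GSY1*, *GDB1* and *GLC3*. The values of *GSY1* overlapped with those of *GDB1*, and those of *GDB1* with those of *GLC3*. Below *GLC3*, without overlap, came *GSY2* and then the glycogenins. In *AZF1* MoBY the order was different, as *GDB1* followed *GAC1* with overlapping values (78.8 and 81.4 RPKM on average), and *GPH1* (51.1 RPKM) overlapped with *GSY1* (51.3 RPKM).

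**Figure D1:**
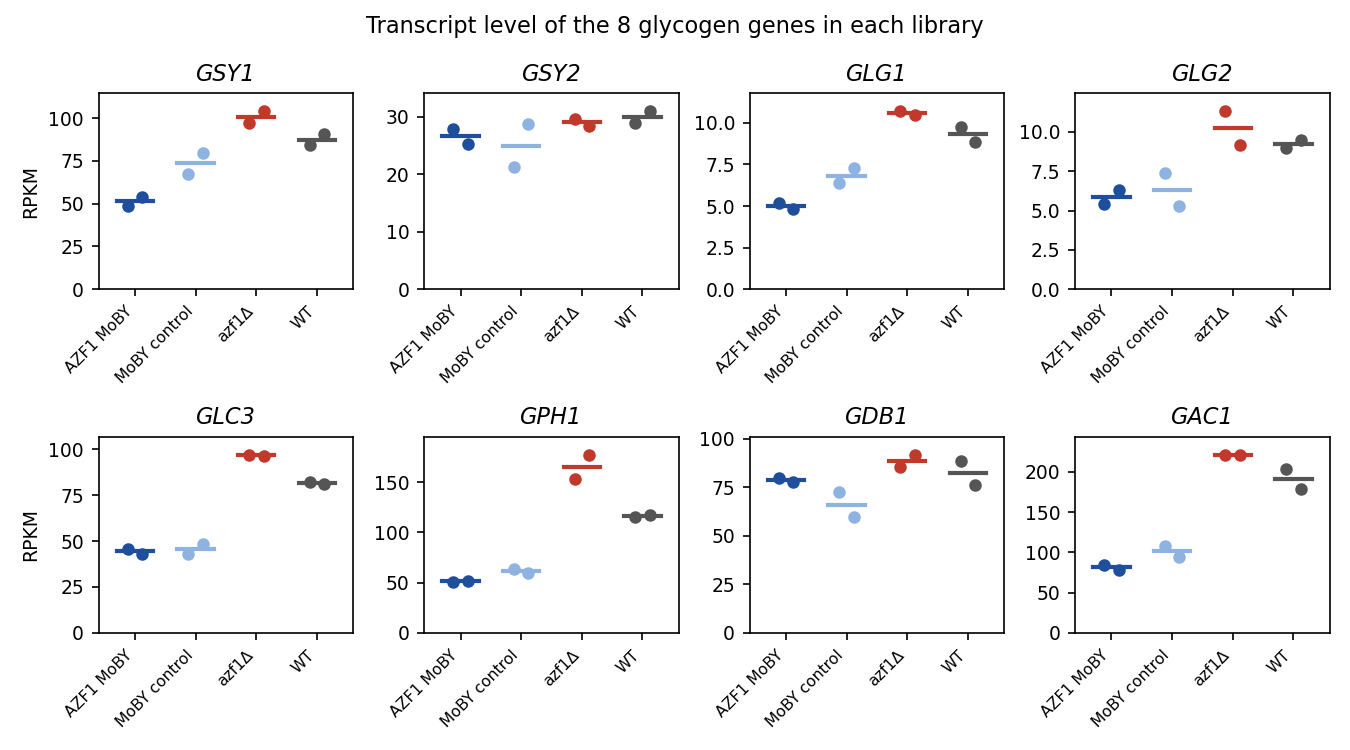
RPKM of each glycogen gene (one panel per gene, linear axis from 0) in the 2 libraries of each group (points), with the group mean as a bar. *GPH1*, *GAC1*, *GLC3*, *GSY1*, *GLG1* and *GLG2* are lower in all 4 plasmid-bearing libraries than in the 4 others. *GSY2* runs only from 21.3 to 30.9 RPKM.

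The effect of losing *AZF1* was asked by comparing *azf1Δ* with WT. No glycogen gene passed the threshold of an adjusted p of 0.05 in limma, a linear model fitted across all genes on log2(RPKM + 1), where 1.73% of 5944 genes did (0.942% higher and 0.791% lower). The log2 fold change was above 0 for 7 of the 8 members, and for *GSY2* it was -0.04. *GPH1*, the phosphorylase gene, came nearest to a call, at 165.3 ± 17.0 RPKM in *azf1Δ* and 116.2 ± 1.14 RPKM in WT (SD, n = 2 each). Its log2 fold change was 0.50 ± 0.09 (SE, limma, adjusted p = 0.0551), and with all 8 libraries in the fit it was called (limma, adjusted p = 0.0324). The range over all alternatives was 0.0324 to 0.293.

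The other members differed less between *azf1Δ* and WT. *GLC3* had a log2 fold change of 0.24 ± 0.07 (SE, limma, adjusted p = 0.177), *GAC1* 0.21 ± 0.09 (0.277) and *GSY1* 0.20 ± 0.08 (0.282). With *GPH1* these are the 4 members at an unadjusted p under 0.05, a level that 1048 of the 5944 genes reached. *GLG1*, *GLG2* and *GDB1* had log2 fold changes of 0.17, 0.13 and 0.11, each with a 95% interval that included 0. For *GSY2* the 95% interval was -0.26 to 0.18. The median over the 8 members was 0.18, beside 0.04 over all genes tested, and 5 of the 8 had non-overlapping groups, as did 48.3% of all genes (30.7% higher and 17.6% lower in *azf1Δ*). Single libraries decided the small values, since *GSY2* was at 0.01 without WT replicate B and *GLG2* at -0.01 without *azf1Δ* replicate A.

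Extra *AZF1* was examined in *AZF1* MoBY against MoBY control, both under G418. Among the glycogen genes the synthase gene *GSY1* alone was called, and it was lower, at 51.3 ± 3.52 RPKM in *AZF1* MoBY and 73.5 ± 8.99 RPKM in MoBY control (SD, n = 2 each). The log2 fold change of *GSY1* was -0.51 ± 0.12 (SE, limma, adjusted p = 0.0430), and 6.17% of 6029 genes were called lower (10.2% higher and 16.4% in either direction). The call lay close to the threshold. It was lost after median-ratio rescaling of the libraries (adjusted p = 0.05004), without the filter on low values (0.0698), without the variance trend (0.0921) and when *AZF1* MoBY replicate A was left out (0.0767).

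*GPH1* and *GAC1* were below MoBY control in both *AZF1* MoBY libraries without passing the threshold, with log2 fold changes of -0.26 ± 0.09 and -0.31 ± 0.11 (SE, limma, adjusted p = 0.123 and 0.109). With all 8 libraries in the fit *GAC1* was not called either (limma, adjusted p = 0.054). In a fit of that kind without MoBY control replicate B the *GAC1* value was -0.41. *GLG1* had -0.38 ± 0.17 (adjusted p = 0.197). *GDB1*, the debranching enzyme gene, went the other way, at 78.8 ± 1.55 RPKM in *AZF1* MoBY and 66.1 ± 9.04 RPKM in MoBY control, a log2 fold change of 0.26 ± 0.12 (SE, limma, adjusted p = 0.210). The *GDB1* value was 0.39 without MoBY control replicate A, in a fit to the remaining libraries of all groups. *GSY2*, *GLG2* and *GLC3* had overlapping groups, with log2 fold changes of 0.10, -0.08 and -0.04, and the 95% interval for *GLC3* was -0.31 to 0.23. The median over the members was -0.17, beside 0.005 over all genes tested, and 5 of the 8 had non-overlapping groups, against 59% of all genes (30.9% higher and 28.1% lower).

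The larger differences appeared between the backgrounds, in MoBY control against WT. *GPH1*, *GAC1* and *GLC3*, which encode the phosphorylase, the phosphatase-targeting subunit and the branching enzyme, fell in MoBY control. *GPH1* was at 61.4 ± 2.41 RPKM in MoBY control and 116.2 ± 1.14 RPKM in WT (SD, n = 2 each), a 1.89-fold lower level with a log2 fold change of -0.91 ± 0.10 (SE, limma, adjusted p = 0.0018). *GAC1* was at 101.4 ± 9.92 RPKM in MoBY control and 191.1 ± 17.8 RPKM in WT, with a log2 fold change of -0.91 ± 0.12 (adjusted p = 0.0037), and *GLC3* at 45.7 ± 4.02 RPKM in MoBY control and 81.6 ± 0.800 RPKM in WT, with -0.83 ± 0.11 (adjusted p = 0.0038). All 3 calls held under each alternative, the adjusted p staying at or below 0.0155.

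The 5 other members were also below WT in both MoBY control libraries, without a call. *GLG2* had a log2 fold change of -0.50 ± 0.19 (SE, limma, adjusted p = 0.119), *GLG1* -0.40 ± 0.16 (0.130), *GDB1* -0.32 ± 0.14 (0.162), *GSY2* -0.26 ± 0.16 (0.3004) and *GSY1* -0.25 ± 0.12 (0.199). In all, 3 of 8 members were called lower, against 10.6% of 5991 genes (13.2% higher and 23.7% in either direction), and 8 of 8 had non-overlapping groups, against 63% of all genes (30.4% higher and 32.6% lower). The median over the members was -0.45, beside -0.02 over all genes tested. The replicates of MoBY control lay apart for some members. In fits to the remaining libraries of all 4 groups, the value without replicate A was -0.71 for *GLG2* and -0.45 for *GDB1*. Without replicate B it was -0.38 for *GSY1* and -0.47 for *GSY2*. The MoBY control libraries serve in both plasmid comparisons and the WT libraries in both comparisons with WT, so these comparisons are not independent of each other.

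**Figure D2:**
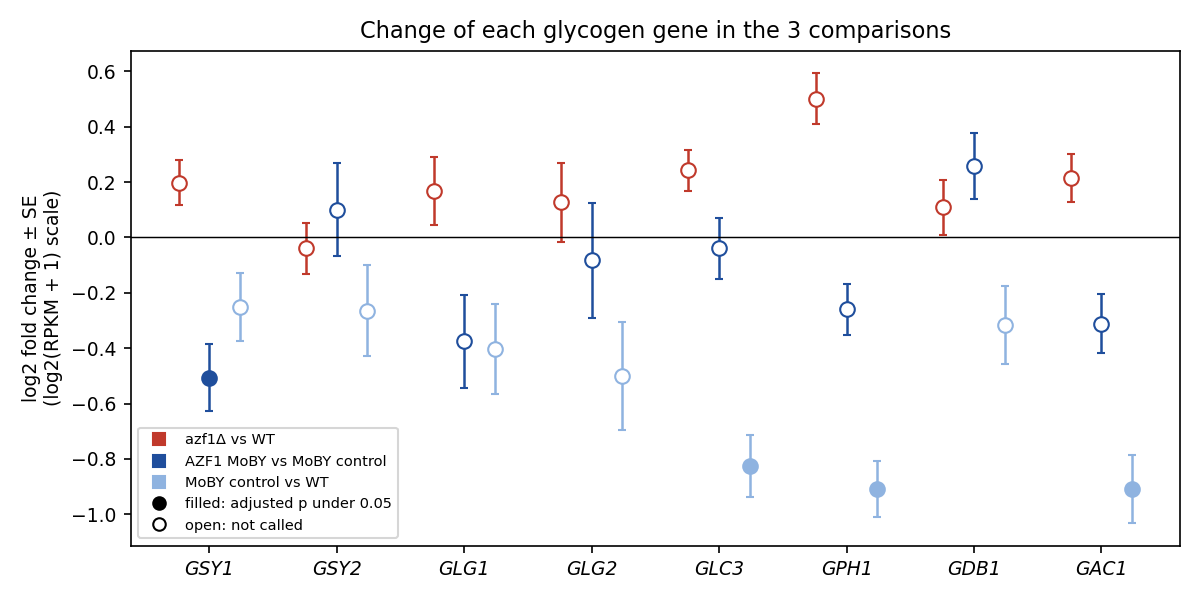
Log2 fold change of each glycogen gene, on the log2(RPKM + 1) scale, with its SE from limma (bars), for the 3 pairwise comparisons. Filled points mark the calls, which are *GSY1* in *AZF1* MoBY against MoBY control and *GLC3*, *GPH1* and *GAC1* in MoBY control against WT, all of them below 0.

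Whether gain and loss of *AZF1* acted differently was tested with every library in a single model, as the effect in *AZF1* MoBY against MoBY control minus the effect in *azf1Δ* against WT. Gain was measured in plasmid-bearing cells under G418, and loss in cells without either. The dose of *AZF1* and that background therefore cannot be told apart in this difference. *GPH1*, *GSY1* and *GAC1* were called, all with a lower value for gain than for loss, where 6.8% of 6105 genes were called lower, 7.9% higher and 14.7% in either direction (415 lower and 482 higher, or 284 lower and 612 higher after median-ratio rescaling). For *GPH1* the effects were -0.26 and 0.50 and their difference was -0.76 ± 0.13 (SE, limma, adjusted p = 0.0070), which was called under every alternative (adjusted p from 0.0070 to 0.0347). For *GSY1* the effects were -0.51 and 0.20 and the difference was -0.70 ± 0.15 (adjusted p = 0.0168). It was no longer called without WT replicate A (0.0584), *azf1Δ* replicate B (0.0697) or *AZF1* MoBY replicate A (0.0688). For *GAC1* the effects were -0.31 and 0.21 and the difference was -0.53 ± 0.14 (adjusted p = 0.0400). After rescaling (0.102), without the variance trend (0.0911) and in 6 of the 8 fits that left out a library (up to 0.147) the *GAC1* call was lost.

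For the other 5 members the difference between gain and loss was not called. It was -0.54 ± 0.20 for *GLG1* (SE, limma, adjusted p = 0.102), -0.28 ± 0.12 for *GLC3* (0.167), -0.21 ± 0.26 for *GLG2* (0.627), 0.14 ± 0.20 for *GSY2* (0.680) and 0.15 ± 0.16 for *GDB1* (0.584). The 95% interval for *GSY2* was -0.31 to 0.59, and the value was -0.07 without MoBY control replicate A.

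Some ratios between members within a library, which do not depend on its depth, also differed between groups. The ratio of *GSY1* to *GSY2* transcripts was 1.75 and 2.13 in *AZF1* MoBY against 3.16 and 2.79 in MoBY control, and 3.27 and 3.66 in *azf1Δ* against 2.93 and 2.93 in WT. *GSY1* was thus the more abundant synthase transcript in every library, and least so in *AZF1* MoBY. Both synthase transcripts together stood at 1.53 and 1.52 times *GPH1* in *AZF1* MoBY against 1.40 and 1.82 in MoBY control, and at 0.826 and 0.747 in *azf1Δ* against 0.982 and 1.04 in WT. Synthase transcripts exceeded phosphorylase transcripts in all 4 plasmid-bearing libraries, and phosphorylase transcripts exceeded those of synthase in both *azf1Δ* libraries. The breakdown enzymes parted as well, with *GPH1* over *GDB1* at 0.629 and 0.669 in *AZF1* MoBY against 0.871 and 1.0 in MoBY control, and at 1.79 and 1.93 in *azf1Δ* against 1.30 and 1.54 in WT. In contrast, *GLG1* over *GLG2* overlapped between the groups, from 0.763 in an *AZF1* MoBY library to 1.38 in a MoBY control library. The ratio of *GPH1* to *GDB1* was not among those planned. These ratios are given as descriptions and their differences were not tested.

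**Figure D3:**
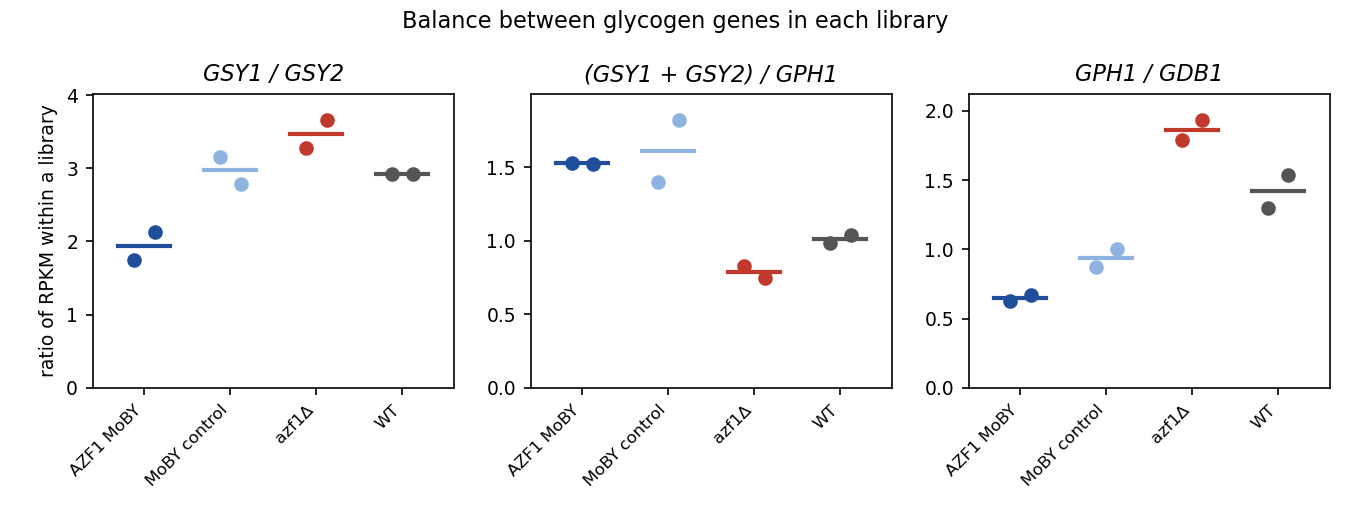
Ratio of RPKM values within each library (points, with the group mean as a bar, linear axis from 0) for *GSY1* over *GSY2*, the sum of both synthases over *GPH1*, and *GPH1* over *GDB1*. *GPH1* over *GDB1* runs without overlap between groups from 0.629 in *AZF1* MoBY to 1.93 in *azf1Δ*.

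Across the 8 libraries *GPH1*, *GAC1*, *GLC3* and *GLG1* followed each other closely on log2(RPKM + 1), with Pearson correlations of 0.94 to 0.979 between any pair. *GSY1* correlated with them at 0.864 to 0.958 and *GLG2* at 0.828 to 0.92. *GDB1* and *GSY2* stood apart, at 0.217 with each other, at 0.266 to 0.653 for *GDB1* and 0.33 to 0.668 for *GSY2* with the remaining members. These correlations describe 8 libraries of 4 groups, mostly the difference between plasmid and no plasmid, and all points share their library. Outside the group, the 5 genes of 4199 with a mean of 10 RPKM or more whose centered profile lay nearest to that of *GPH1* were *RPM2*, *HAP4*, *ISF1*, *COX5A* and *YAT1*, at a root mean square difference of 0.11 to 0.13 on the log2 scale over the 8 libraries. *HAP4* encodes an activator of respiration genes and *COX5A* a subunit of cytochrome c oxidase. For *GSY2* they were *NBP2*, *BRX1*, *DBP10*, *KIN1* and *RHO5*, at 0.05 to 0.07.

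Genes of hexose phosphorylation and UDP-glucose synthesis, listed as precursor supply for glycogen, were examined next. The sugar added was xylose, and the route by which glucose units reached glycogen was not measured. Of the 6 hexokinase, phosphoglucomutase and UDP-glucose pyrophosphorylase genes, 4 fell in MoBY control against WT and none was called higher, where 10.6% of all genes were called lower and 13.2% higher, with a median log2 fold change of -0.54. *HXK1*, a hexokinase gene, was at 2288 and 2150 RPKM in MoBY control against 4973 and 4330 RPKM in WT (-1.06 ± 0.14, SE, limma, adjusted p = 0.0036). *PGM2*, the major phosphoglucomutase gene, which leads from glucose 6-phosphate toward UDP-glucose, had -0.83 ± 0.11 (adjusted p = 0.0033) and the hexokinase gene *HXK2* -0.72 ± 0.12 (0.0084), and these 3 calls held under each alternative. *HXK1* fell again in *AZF1* MoBY, to 1160 and 1105 RPKM, against 2288 and 2150 RPKM in MoBY control (-0.97 ± 0.09, adjusted p = 0.0032), and was the single call of this list there, against 16.4% of all genes. In *azf1Δ* 0 of the 6 were called by limma, against 1.73% of all genes, 2 having an unadjusted p under 0.05. The difference between gain and loss of *AZF1* was called for *HXK1* alone of the 6 (-1.17 ± 0.15, SE, limma, adjusted p = 0.0029), against 14.7% of all genes.

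Among 14 genes for kinases, phosphatase subunits and cyclins that act on glycogen synthase, 2 were called in MoBY control against WT, both lower, a share no higher than the 23.7% of all genes called in either direction. *GIP2*, which encodes another Glc7-binding protein, fell to 3.53 and 3.39 RPKM in MoBY control, against 7.11 and 7.31 RPKM in WT (-0.88 ± 0.17, SE, limma, adjusted p = 0.0148), and *SNF4*, for a subunit of the Snf1 kinase, had -0.63 ± 0.12 (0.0129). *PIG1* and *PIG2*, for relatives of Gac1, had log2 fold changes of 0.09 and -0.005 and were not called. In *AZF1* MoBY against MoBY control 1 of the 14 was called, where 16.4% of all genes were. It was *PCL7*, which encodes a cyclin of the kinase Pho85, at 8.88 and 8.82 RPKM in *AZF1* MoBY against 13.7 and 13.4 RPKM in MoBY control (-0.56 ± 0.14, adjusted p = 0.0437). That call was lost without the filter (0.0636), after rescaling (0.0581), with the replicate block (0.0936) and without either *AZF1* MoBY library (0.0665 and 0.0730). In *azf1Δ* 0 of the 14 were called by limma, against 1.73% of all genes. At an unadjusted p under 0.05 there were 3, a level that 1048 of 5944 genes reached. The difference between gain and loss was called for *PCL7* (-0.86 ± 0.18, SE, limma, adjusted p = 0.0149) and *PIG1* (-0.69 ± 0.20, 0.0481). These 2 of 14 are a share no higher than the 14.7% of all genes called in that test. The *PCL7* call was lost in 4 of the 8 fits that left out a library (up to 0.0641), and the *PIG1* call was lost in 7 of them (up to 0.158) and in 4 other alternatives.

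A further gene of glycogen breakdown was higher, not lower, in the plasmid strains. *SGA1* encodes a glucoamylase best known from sporulating cells, where it hydrolyzes glycogen to glucose. It was at 51.3 and 54.6 RPKM in *AZF1* MoBY against 16.7 and 18.1 RPKM in MoBY control, and at 1.53 and 1.67 RPKM in *azf1Δ* against 1.85 and 1.74 RPKM in WT. *SGA1* rose 9.68-fold in RPKM in MoBY control over WT (log2 fold change 2.72 ± 0.17, SE, limma, adjusted p = 0.00018) and a further 3.04-fold in *AZF1* MoBY over MoBY control (1.55 ± 0.11, adjusted p = 0.0022), and both calls held under every alternative. In *AZF1* MoBY the *SGA1* level per length was close to that of *GPH1*, whereas in WT *GPH1* was far above it. In *azf1Δ* against WT it was not called (-0.11 ± 0.23, limma, adjusted p = 0.850). Its difference between gain and loss was 1.66 ± 0.19 (SE, limma, adjusted p = 0.0019), higher for gain.

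Genes for the synthesis and breakdown of trehalose, the other storage carbohydrate of yeast, which is also made from UDP-glucose, were counted in the same way. In MoBY control against WT 0 of 7 were called by limma, with 0 at an unadjusted p under 0.05, where 23.7% of all genes were called and 2200 of 5991 reached that unadjusted level. Their median log2 fold change was -0.04, beside -0.45 for the glycogen genes. *TSL1*, for a regulatory subunit of trehalose synthase, was the only one of the 7 called in *AZF1* MoBY, against 16.4% of all genes. It was at 85.0 and 85.6 RPKM against 49.9 and 53.8 RPKM in MoBY control (0.71 ± 0.09, SE, limma, adjusted p = 0.0073). The difference between gain and loss was called, and higher for gain, for *NTH1*, which encodes the neutral trehalase (0.79 ± 0.13, adjusted p = 0.0063), and for *TSL1* (0.60 ± 0.12, 0.0126). Of all genes, 7.9% were called higher and 6.8% lower in that test. The *TSL1* call was lost without *azf1Δ* replicate A (0.0553) and without either *AZF1* MoBY library (0.0512 and 0.0587). The difference between the glycogen and trehalose lists was not tested.

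Of 9 transcription factor and kinase genes that act on stress and storage genes, 0 were called by limma in any pairwise comparison, with 3 in *azf1Δ*, 3 in *AZF1* MoBY and 2 in MoBY control at an unadjusted p under 0.05. Over all genes 1048 of 5944, 1919 of 6029 and 2200 of 5991 reached that level in the same 3 comparisons. The 3 in *AZF1* MoBY were *GIS1*, *MSN4* and *MSN2*, with log2 fold changes of -0.39, -0.36 and -0.35 (limma, adjusted p = 0.0845, 0.0791 and 0.111). Among the 9 genes, 7 were below 0 there and 2 above. The difference between gain and loss of *AZF1* was called for *GIS1* (-0.74 ± 0.14, SE, limma, adjusted p = 0.0110), *MSN4* (-0.71 ± 0.14, 0.0110) and *MSN2* (-0.58 ± 0.15, 0.0350), all lower for gain. Of all genes, 6.8% were called lower and 7.9% higher in that test. The *GIS1* call was lost without *azf1Δ* replicate B (0.0518) and the *MSN4* call without *AZF1* MoBY replicate B (0.0513). The *MSN2* call was lost after rescaling (0.0749), with the replicate block (0.0535) and in 7 of the fits that left out a library.

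**Figure D4:**
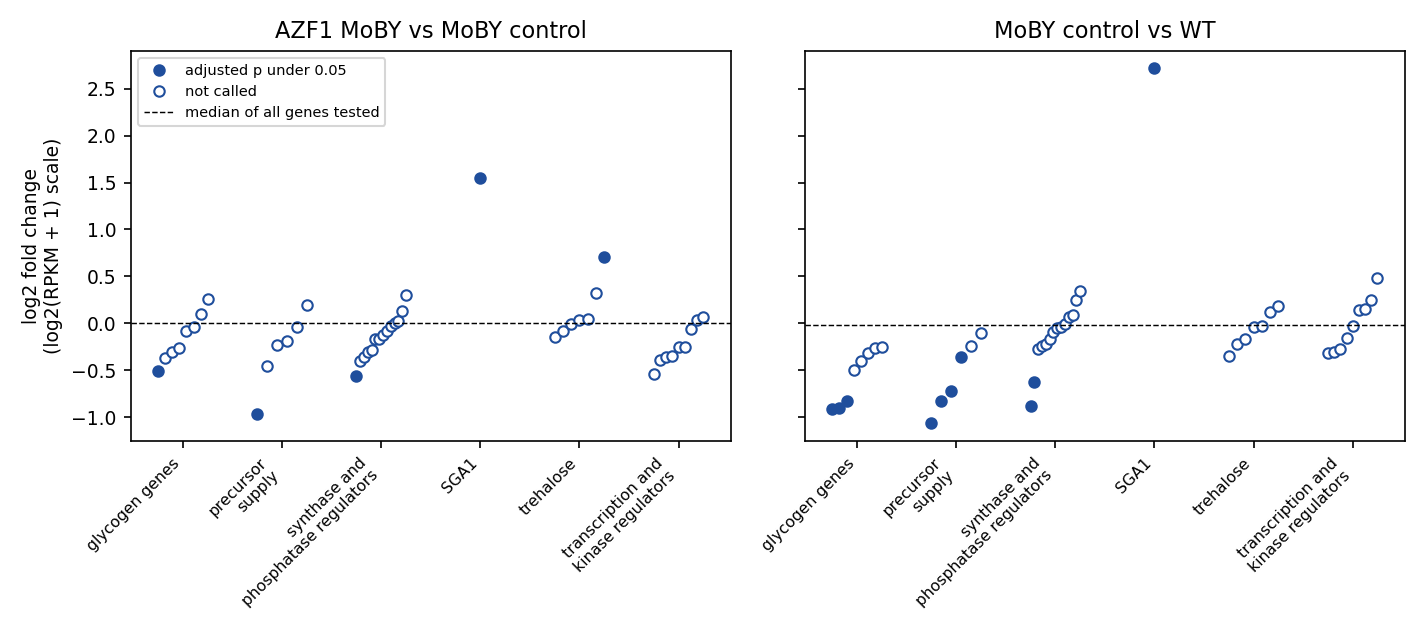
Log2 fold change of each gene (points, on the log2(RPKM + 1) scale) in 6 gene lists, for *AZF1* MoBY against MoBY control (left) and MoBY control against WT (right), filled where called, with the median of all genes tested as a dashed line. *SGA1* stands at 1.55 and 2.72 above the other lists. In MoBY control against WT all 8 glycogen genes lie below the dashed line, as do all 6 precursor supply genes.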

How the data were processed

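RNA-seq libraries depleted of ribosomal RNA were made from 8 cultures in 4 groups of 2, with groups taken from the sample labels. The deposited table holds log2 RPKM values that the authors made after trimming with Trimmomatic 0.3.0, alignment with Bowtie2 2.2.2 to the Y22-3 genome and counting with HTSeq 0.6.0 (per the processing notes). The strand setting used in counting and the treatment of zero counts are not given in the sources used here.

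The log2 values were turned back into RPKM, a pseudocount of 1 was added, and the log2 of the sum was modelled by gene in R 4.3.3 using limma 3.58.1, with empirical Bayes moderation that allows a mean-variance trend. A gene entered when 2 or more of the libraries compared reached 1 RPKM. Fold changes on this scale understate the change of low genes. P-values were adjusted by Benjamini and Hochberg over all genes, with a call at an adjusted p under 0.05. Pairwise comparisons used their 4 libraries and the difference between effects all 8. Fits that left out a library were the exception, and used the remaining libraries of all 4 groups in every comparison. Read numbers were estimated from the step between low values and RefSeq gene lengths of 5647 genes, and cover counting error only.

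The members and lists were chosen with earlier results of these data known. All 8 members and *AZF1* were named, and from each other list the called genes, at most 3 rises and 3 falls in a comparison. Outside this rule *PIG2* was named, though called in no comparison. Values of some other listed genes, such as *PIG1*, were also given for comparisons in which they were not called. On simulated data limma recovered 62 to 85% of genes changed by 1 on the log2 scale and 94 to 98% of those changed by 2, depending on the comparison. The changed genes were drawn from those with a mean above 3 on log2(RPKM + 1), so recovery at lower levels was not tested. Replicate letters were treated as names, since no source says that a letter marks a shared day. Alternatives were a pseudocount of 0.1 RPKM, no filter, median-ratio rescaling, all libraries in a pairwise fit, no variance trend, a replicate block and leaving out each library.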

Additional observations from a re-analysis of the deposited data

Results flagged for a closer look

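For 3 glycogen genes the effect in *AZF1* MoBY against MoBY control differed from the effect in *azf1Δ* against WT in the test of that difference. The difference was -0.762 on the log2 scale for the phosphorylase gene *GPH1*, -0.705 for the synthase gene *GSY1* and -0.526 for *GAC1*, which encodes the phosphatase-targeting subunit. In each case both *AZF1* MoBY libraries were below both MoBY control libraries, and both *azf1Δ* libraries were above both WT libraries. These are the values that the test used, so the separation adds nothing to it. Of all genes, 28.1% were separated and lower in *AZF1* MoBY, and 30.7% were separated and higher in *azf1Δ*. The difference itself was called for 14.7% of all genes. The *GPH1* difference was called in every alternative run, whereas those of *GSY1* and *GAC1* were lost in some.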

How the results depend on the processing

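With 2 libraries a group the counts moved with the processing, and the cause was not tested. For *azf1Δ* against WT, 103 genes were called, beside 5 without the filter, 61 after median-ratio rescaling (24 higher and 37 lower, against 56 and 47), 5 without the variance trend and 3 to 45 when a library was left out. With the replicate block limma called 0 genes there (803 at an unadjusted p under 0.05), and with the letters crossed, an alternative chosen after seeing the data, 41. The correlation of replicate differences between these 2 groups was -0.107. In *AZF1* MoBY against MoBY control 988 genes were called, beside 599 without the trend, 674 with the replicate block and 691 to 1483 with a library left out, and for the difference between effects 897, beside 819 with the block and 370 to 1138. Under the block no glycogen gene gained or lost a call, and *AZF1* in *azf1Δ* (adjusted p = 0.158), *PCL7*, *PIG1* and *MSN2* lost theirs. Of the glycogen genes, 1 was called in *azf1Δ* with all 8 libraries in the fit. In *AZF1* MoBY 0 were called without the filter, after rescaling or without the trend, and 0 to 2 with a library left out, against 3 to 5 in MoBY control and 1 to 3 for the difference. Their median was 0.19 with a pseudocount of 0.1 RPKM, 0.13 after rescaling and 0.14 to 0.22 with a library left out in *azf1Δ*. It was -0.13 after rescaling and -0.29 to -0.16 with a library left out in *AZF1* MoBY. In MoBY control it was -0.51 with the pseudocount of 0.1 and -0.58 to -0.44, and for the difference -0.31 after rescaling and -0.45 to -0.35. Signs turned for uncalled values only. With a library left out, the values in *azf1Δ* ran from -0.0871 to 0.00968 for *GSY2* and from -0.00907 to 0.264 for *GLG2*. In *AZF1* MoBY they ran from -0.106 to 0.307 for *GSY2*, from -0.290 to 0.123 for *GLG2* and from -0.127 to 0.0489 for *GLC3*, which was at 0.00152 after rescaling. For the difference, *GSY2* ran from -0.0674 to 0.346. Fits with a library left out used the remaining libraries of all 4 groups, so their nearest counterpart is the fit of all 8 libraries. That fit called 118 genes in *azf1Δ* against WT and 1437 in *AZF1* MoBY against MoBY control. The effect of leaving out a library was not separated from that of pooling the groups. A group reduced to 1 library was assumed to vary like the others.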

Other observations

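*XBP1*, which encodes a stress-induced transcriptional repressor, lies next to *SGA1* in the RefSeq annotation and was looked up after the *SGA1* values had been seen. It was at 100.4 and 94.4 RPKM in *AZF1* MoBY against 40.5 and 41.4 RPKM in MoBY control (log2 fold change 1.23 ± 0.09, SE, limma, adjusted p = 0.0023). *XBP1* was also higher in MoBY control than in WT, where it was at 9.85 and 7.62 RPKM (2.12 ± 0.15, SE, limma, adjusted p = 0.00033). In *azf1Δ* it was at 13.6 and 14.9 RPKM and was not called against WT (0.66 ± 0.15, SE, limma, adjusted p = 0.0987). *FMC1*, the neighbor of *SGA1* on the other side, went the other way in MoBY control, at 6.19 and 8.06 RPKM against 15.4 and 15.3 RPKM in WT (-1.02 ± 0.17, SE, limma, adjusted p = 0.0080). It was not called in *AZF1* MoBY against MoBY control (0.37 ± 0.19, SE, limma, adjusted p = 0.248).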
